A study of Homo sapiens with 4 samples.

Results

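The messenger RNA of the human leukocyte antigen (HLA) class I heavy chains HLA-B, HLA-C, HLA-E, HLA-F and HLA-G, of their shared light chain B2M and of the transcriptional activator NLRC5 was followed in SNU638 cells after IFN-γ. The genes were taken by symbol, and 7 of the 46427 genes of the count table carried one of these symbols. SNU638 is an established human gastric cancer cell line. In 2 libraries the cells carried the control vector, and in the other 2 they overexpressed YTHDF1, a reader of the RNA mark N6-methyladenosine, from a transiently transfected plasmid. Cells of all 4 libraries went without serum for 24 h before they received IFN-γ at 10 ng/ml, so untreated cells were not compared here. The sample labels give 8 h of IFN-γ and the legends of the study give a longer time, and this difference was not settled. The titles number the biological replicates of each vector 1 and 2, and do not say what the replicates with the same number share.

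A class I molecule consists of a heavy chain, B2M and a peptide cut from proteins made inside the cell, and it shows this peptide to CD8 T cells and natural killer cells. HLA-B and HLA-C are classical, highly variable heavy chains, whereas HLA-E, HLA-F and HLA-G are the less variable nonclassical ones, and HLA-E mainly presents leader peptides of other heavy chains. IFN-γ acts through the kinases JAK1 and JAK2 and induces IRF1 and NLRC5. IRF1 binds the interferon-stimulated response element of class I promoters, and NLRC5 joins the RFX, CREB and NF-Y factors that sit on the neighbouring SXY module.

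Of the 7 genes 5 had a promoter entry in RefSeq (GRCh38.p14), all but HLA-E and NLRC5, and of the 3 starts listed for HLA-G the one most like HLA-B was taken. They are shown so that elements known to be used by IRF1 and the NLRC5 assembly can be compared between the heavy chains and B2M. HLA-B, HLA-C and B2M held all 3 of the motifs marked here. Each line gives 180 bases, from 190 to 11 bases before the start, written 5′ to 3′ on the strand of the gene. Capitals mark the core of the interferon-stimulated response element (TTTCNNTT), the CREB motif TGACG and the NF-Y motif CCAAT, each searched on both strands.
HLA-B, chr6:31357190-31357369, minus strand: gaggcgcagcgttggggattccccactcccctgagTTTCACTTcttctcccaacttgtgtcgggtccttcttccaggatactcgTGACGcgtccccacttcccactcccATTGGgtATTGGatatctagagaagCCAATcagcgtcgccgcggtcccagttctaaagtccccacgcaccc
HLA-C, chr6:31272103-31272282, minus strand: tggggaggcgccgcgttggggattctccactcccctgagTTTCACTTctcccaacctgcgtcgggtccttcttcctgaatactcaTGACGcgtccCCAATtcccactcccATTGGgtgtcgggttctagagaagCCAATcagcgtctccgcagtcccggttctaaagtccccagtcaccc
HLA-F, chr6:29723244-29723423, plus strand: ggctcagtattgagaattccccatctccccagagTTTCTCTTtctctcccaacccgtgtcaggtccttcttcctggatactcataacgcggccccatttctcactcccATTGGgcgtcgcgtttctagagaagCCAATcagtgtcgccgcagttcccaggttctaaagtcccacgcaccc
HLA-G, chr6:29827635-29827814, plus strand: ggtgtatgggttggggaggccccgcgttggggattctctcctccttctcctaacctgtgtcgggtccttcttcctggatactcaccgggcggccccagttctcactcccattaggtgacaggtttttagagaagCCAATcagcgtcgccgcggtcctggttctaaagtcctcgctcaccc
B2M, chr15:44711327-44711506, plus strand: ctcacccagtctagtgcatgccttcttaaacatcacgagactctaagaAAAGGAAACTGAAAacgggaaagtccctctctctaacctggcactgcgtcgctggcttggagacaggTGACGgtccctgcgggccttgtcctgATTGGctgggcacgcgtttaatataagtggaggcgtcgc

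TTTCNNTT lay 155 bases before the start in HLA-B, 151 bases in HLA-C and 156 bases in HLA-F, and in B2M it occurred on the other strand at 142 and 136 bases. HLA-G held no match to it in this window. Among 35116 promoter windows of the same length, 14.5% held TTTCNNTT, 17% held TGACG and 26.4% held CCAAT. A match to TGACG lay at 106 bases in HLA-B, 105 bases in HLA-C and 75 bases in B2M, and HLA-F and HLA-G held no match to it. Every one of the 5 windows held CCAAT, though not at the same places. On the other strand CCAAT lay at 81 and 74 bases in HLA-B, 80 bases in HLA-C, 82 bases in HLA-F and 49 bases in B2M. HLA-G had no match on that strand. On the strand of the gene CCAAT lay at 56 bases in HLA-B, HLA-C and HLA-G and at 57 bases in HLA-F. HLA-C held a further match there at 95 bases. The printed bases are those of the reference genome and can differ from the alleles of the cell line.

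The labels held for the overexpressed gene. YTHDF1 was at 82.2 and 80.3 CPM (read counts per unit of TMM-scaled library size) in control replicates 1 and 2, against 16494.5 and 2628 CPM in YTHDF1 replicates 1 and 2. The total count was 57398137 to 60864942 per library. The 7 genes took 0.319% and 0.370% of the counts in control and 0.316% and 0.382% in YTHDF1-overexpressed cells. Of the 8 epithelial markers EPCAM was at 242 to 284 CPM, while the summed level of the 8 was 4252 and 4059 CPM in the libraries numbered 1 and 6490.3 and 6807 CPM in those numbered 2. This sum was carried by the keratins KRT8, KRT18 and KRT19, and the other 5 markers were lower in the libraries numbered 2, each passing by adjusted p, with a median log2 fold change of -0.26 over the 8. CLDN4, a tight junction gene, had the largest of these differences, at 54.98 and 56.6 CPM in the libraries numbered 1 and at 0.934 and 0.994 CPM in those numbered 2. The 10 haematopoietic markers summed to 6.20 to 6.47 CPM with 3 of them at 0 in all 4 libraries. The 10 fibroblast and endothelial markers summed to 11.8 and 12.4 CPM in the libraries numbered 1 and to 7.55 and 6.81 CPM in those numbered 2, with 1 of them at 0 throughout.

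Of the 7 genes 6 had counts and were tested, while HLA-G was not detected in any of the 4. A count of 0 allows up to 3 counts, or 0.0497 to 0.0529 CPM, per library. Values follow in the order control replicate 1, control replicate 2, YTHDF1 replicate 1 and YTHDF1 replicate 2. In bulk RNA, fewer cells that express a gene and less of its RNA per cell cannot be told apart.

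HLA-B was at 190.0, 238, 188 and 242 CPM. Both libraries numbered 2 were above both numbered 1, and the vectors overlapped. HLA-C went the other way, at 380.5, 285, 379.7 and 297 CPM, so its libraries numbered 1 were the high ones under both vectors. HLA-E, the most abundant heavy chain, was at 1055, 1125, 1054 and 1163 CPM, a narrow range with the numbers again apart. HLA-F was the lowest heavy chain with counts, at 28.1, 43.1, 26.4 and 44.2 CPM.

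B2M was at 1338, 1894, 1341 and 1934 CPM. The control and YTHDF1 libraries of the same number lay within 2.06% of each other, while the numbers were far apart. NLRC5 was at 149.9, 164, 153 and 165 CPM, again with both libraries numbered 2 above both numbered 1. Counting error alone, as exact Poisson 95% intervals, came to between 0.574% and 0.698% of a value on either side for B2M and to between 3.81% and 5.00% for HLA-F, the least precise of the 6.

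**Figure D1:**
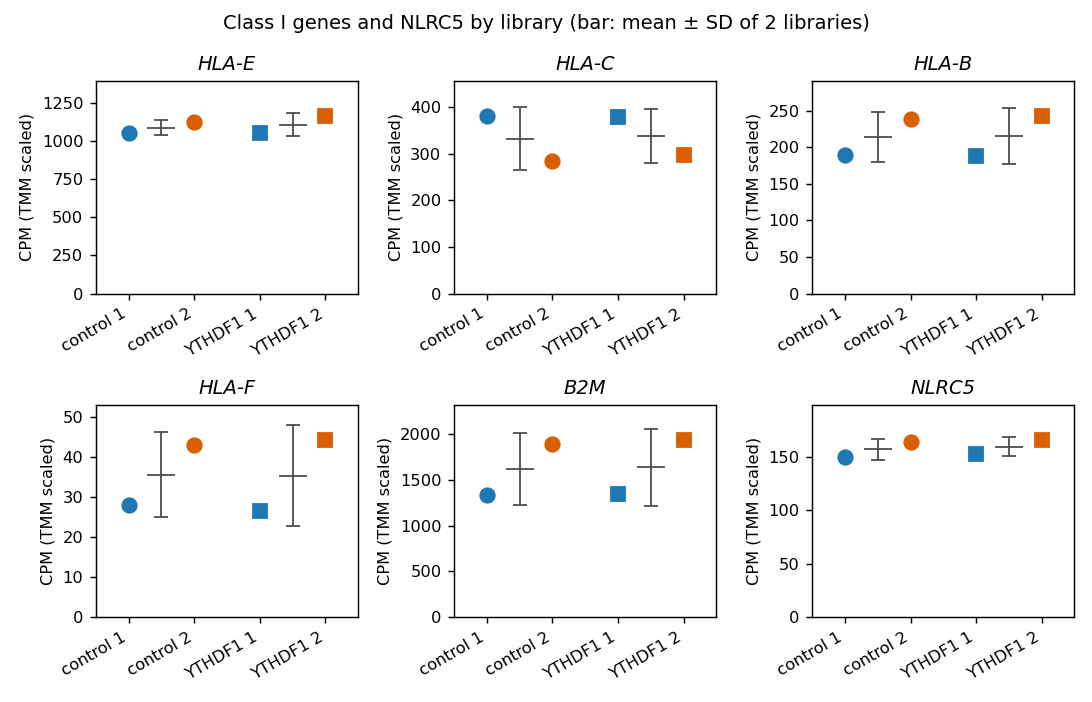
Expression of 6 genes in CPM in each library (y axis from 0), with circles for control, squares for YTHDF1, blue for libraries numbered 1 and orange for those numbered 2, and bars for the mean ± SD of 2 libraries. Points split by colour in every panel, with orange above blue except in HLA-C, and the vector means sit side by side.

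Levels of different genes can be set side by side only per length, so CPM was divided by the length of the gene's reference transcript in kilobases. On that scale B2M was highest, at 1419, 2009, 1422 and 2050.4 CPM per kilobase. HLA-E followed at 405, 432, 405 and 447 CPM per kilobase. HLA-C was at 248, 186, 247 and 194 CPM per kilobase and HLA-B at 123, 154, 122 and 157, so HLA-C was above HLA-B in each library, and by less in the libraries numbered 2. The alleles of the line can differ from the reference, which may change how many reads of each gene were counted, so this order is uncertain. NLRC5 was at 22.3, 24.3, 22.7 and 24.6 CPM per kilobase and HLA-F at 17.2, 26.3, 16.2 and 27.1. The last places therefore changed with the replicate number, NLRC5 being above HLA-F in the libraries numbered 1 and below it in those numbered 2.

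Whether YTHDF1 changed these messages was asked by comparing the YTHDF1-overexpressed cells with control. None of the 6 tested genes passed the test, and in each of them the libraries of the vectors overlapped, where 11.5% of all tested genes did not overlap. HLA-B was at 214 ± 34.2 CPM in control and 215 ± 38.2 CPM in YTHDF1 (mean ± SD, n = 2 each), a log2 fold change of 0.0079 with a 95% interval of -0.56 to 0.58. HLA-C was at 333 ± 67.4 and 338 ± 58.3 CPM, with a log2 fold change of 0.024 and an interval of -0.60 to 0.65. HLA-E was at 1089.6 ± 49.5 and 1109 ± 76.9 CPM, with a log2 fold change of 0.025 and an interval of -0.30 to 0.35. The intervals of HLA-B and HLA-C reach past the size of 0.5 that the study asked for, and that of HLA-E stays inside it. The fit had no term for the replicate number, so the intervals by vector take in the spread between the numbers. Differences within a number are given below.

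HLA-F was at 35.6 ± 10.6 CPM in control and 35.3 ± 12.6 CPM in YTHDF1, a log2 fold change of -0.0097 with an interval of -1.07 to 1.05. B2M was at 1616 ± 393 and 1637 ± 419 CPM, with a log2 fold change of 0.019 and an interval of -0.81 to 0.84. NLRC5 was at 157 ± 9.69 and 159 ± 8.82 CPM, with a log2 fold change of 0.022 and an interval of -0.26 to 0.31. The interval of HLA-F was the widest of the 6. The adjusted p of edgeR's quasi-likelihood test over 17781 genes was 1.00 for each of the 6. By adjusted p none of the 17781 genes passed, and YTHDF1 itself did not, at a log2 fold change of 6.88. The adjusted p can therefore not decide about the 6 genes. The study asked for a log2 fold change of 0.5 or more in size and for p under 0.05. By this rule 0 of the 6 genes were called with unadjusted p, where 0.101% of all tested genes were, and 0 with adjusted p, where 0% were. With no fold change asked for, 0 of the 6 had an unadjusted p under 0.05, where 24 of all genes, or 0.135%, did.

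The vectors were also compared between the libraries of the same number. Within number 1 the YTHDF1 library differed from control by -5.86% for HLA-F to 2.00% for NLRC5. Within number 2 it lay above control for all 6 genes, by 1.09% for NLRC5 to 4.26% for HLA-C. The signs thus differed between the numbers for HLA-B, HLA-C, HLA-E and HLA-F, whereas B2M and NLRC5 were slightly higher with YTHDF1 in both. Within number 1 all but the difference of HLA-F were smaller than the counting error of a single library, so their signs are not resolved. Within number 2 those of HLA-F and NLRC5 were smaller too. There HLA-B was about at its counting error, and B2M, HLA-C and HLA-E were above theirs. The median log2 fold change of the 6 was 0.020 and that of all tested genes 0.0046, while the median size, whatever the sign, was 0.020 for the 6 and 0.069 for all genes.

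**Figure D2:**
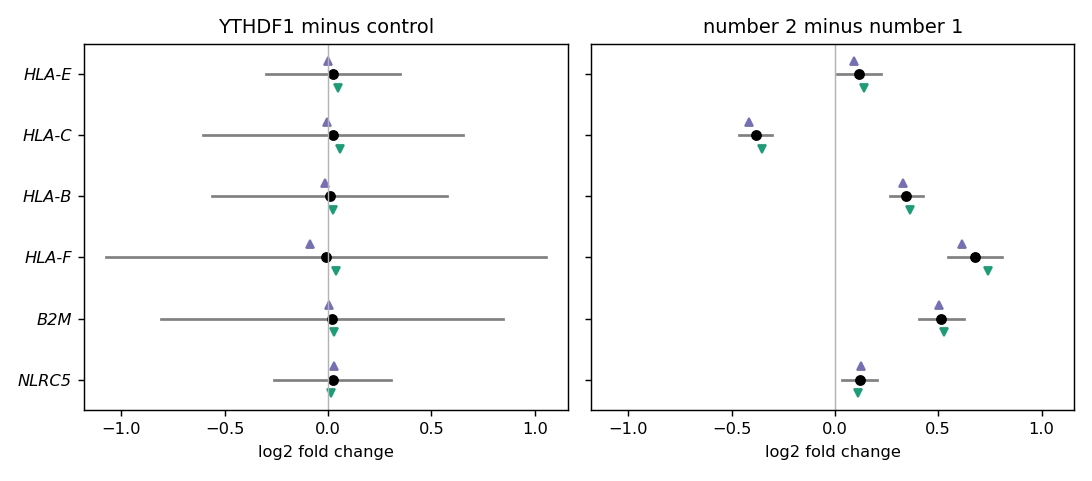
Log2 fold change of the 6 tested genes for YTHDF1 against control (left) and for the libraries numbered 2 against those numbered 1 (right), as black points with 95% intervals in grey; triangles are the differences of single library pairs, within each number on the left and within each vector on the right. On the left all intervals cross 0 and the triangles lie close to it; on the right 5 genes lie above 0 and HLA-C below it.

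For all 6 genes the libraries numbered 2 were apart from those numbered 1, in the same direction under both vectors, and 5 passed the test by adjusted p. B2M was higher in the libraries numbered 2, at 1914 against 1339.7 CPM (means of 2 libraries), a log2 fold change of 0.51 with a 95% interval of 0.41 to 0.62 and an adjusted p of 3.14e-05 by edgeR's quasi-likelihood test. HLA-F had the largest difference, at 43.7 against 27.3 CPM, with a log2 fold change of 0.68, an interval of 0.55 to 0.81 and an adjusted p of 1.78e-05. HLA-B was higher at 240.4 against 189 CPM, with a log2 fold change of 0.35, an interval of 0.26 to 0.43 and an adjusted p of 5.77e-05. HLA-C was lower at 291 against 380.1 CPM, with a log2 fold change of -0.38, an interval of -0.46 to -0.30 and an adjusted p of 2.83e-05. Where the light chain was higher, HLA-B and HLA-F were higher too and HLA-C was lower, at 0.766 times its level in the libraries numbered 1 where B2M was at 1.43 times.

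HLA-E and NLRC5 had the smallest differences by number. NLRC5 was at 164 against 151 CPM, with a log2 fold change of 0.12, an interval of 0.034 to 0.21 and an adjusted p of 0.0252, which was 0.113 without control replicate 2 and 0.159 without YTHDF1 replicate 2. HLA-E was at 1144 against 1055 CPM, with a log2 fold change of 0.12, an interval of 0.0097 to 0.23 and an adjusted p of 0.0651, which did not pass and ran from 0.0040 to 0.341 over the other settings tried for this gene. Within control and within YTHDF1 the log2 differences were 0.50 and 0.53 for B2M, 0.62 and 0.74 for HLA-F, 0.33 and 0.36 for HLA-B and -0.42 and -0.35 for HLA-C.

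With the size of 0.5 and adjusted p, 2 of the 6 genes, B2M and HLA-F, were called, both higher, where 26.2% of all tested genes were called in either direction, 9.96% higher and 16.2% lower. HLA-B, HLA-C and NLRC5 passed by p and not by size. With unadjusted p the same 2 genes were called, where 27.9% of all genes were. By adjusted p alone 5 of the 6 passed, where 52.6% of all genes did, by unadjusted p alone 6 passed, where 57.9% of all genes did, and all 6 were apart between the numbers, where 77.1% of all genes were. The numbers thus differed over much of the transcriptome, and these counts are no result about the class I genes. The median log2 fold change was 0.23 over the 6 genes and -0.012 over all tested genes, and the median size was 0.36 and 0.31. The labels give the number no meaning, so this is described as a difference between libraries. Whether a condition differed between the numbers cannot be told. Of the 8 epithelial markers 3 were higher and 5 lower in the libraries numbered 2, and their part in these differences was not tested.

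A ratio to B2M within a library does not depend on how libraries are scaled, and it shows which messages moved against the light chain. There were 28.4, 15.1, 28.3 and 15.4 counts of HLA-C for every 100 counts of B2M. The ratio of HLA-C was thus lower in both libraries numbered 2 by a log2 difference of -0.90, with -0.92 within control and -0.88 within YTHDF1. HLA-E gave 78.8, 59.4, 78.6 and 60.2 counts for 100 of B2M, a log2 difference of -0.40 by number. NLRC5 gave 11.2, 8.64, 11.4 and 8.55 counts, a log2 difference of -0.39. Relative to the light chain, HLA-C, HLA-E and NLRC5 were all lower in the libraries numbered 2.

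HLA-B stayed closest to B2M together with HLA-F. HLA-B gave 14.2, 12.6, 14.05 and 12.5 counts for 100 of B2M, a log2 difference of -0.17 by number. HLA-F was the only heavy chain whose ratio was higher in the libraries numbered 2, at 2.10, 2.27, 1.97 and 2.29 counts, a log2 difference of 0.17. Between the vectors the log2 difference of the ratio was -0.041 for HLA-F and lay between -0.011 and 0.012 for the other 4 genes, and the two-sided exact permutation test gave a p of 0.667 for HLA-B and of 1.00 for the others. With 1 library left out these differences between the vectors ran from -0.45 to 0.47 for HLA-C, from -0.20 to 0.21 for HLA-E and for NLRC5, from -0.097 to 0.076 for HLA-B and from -0.15 to 0.067 for HLA-F. By number the same test gave 0.333333 for every ratio, the smallest p that 2 libraries against 2 allow.

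**Figure D3:**
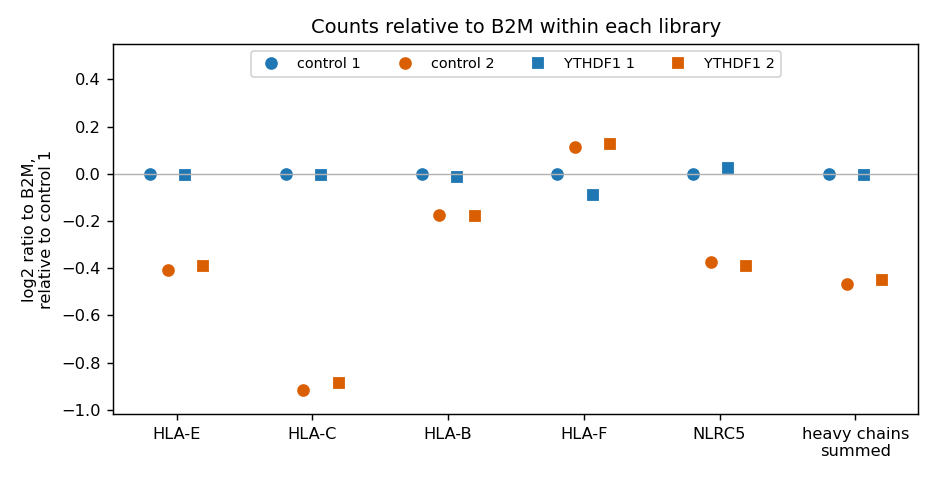
Log2 of the ratio of each gene to B2M within a library, set to 0 in control replicate 1, with genes along the x axis and 1 point per library (circles control, squares YTHDF1, blue number 1, orange number 2). The libraries numbered 1 lie near 0, and in those numbered 2 HLA-C is lowest, followed by the summed heavy chains, HLA-E and NLRC5 and then HLA-B, while HLA-F is above 0.

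Near-identical genes can share reads that the counting splits, so the overlap was measured on reference transcripts and the 5 heavy chains were also added up. Windows of 100 bases that also occur in a transcript of any other gene made up 0.278% of HLA-C and 0.5995% of HLA-E. They made up 1.01% of HLA-G, which had no counts, and 0% of HLA-B and HLA-F. Windows of 50 bases made up 6.79% of HLA-C, 5.13% of HLA-E, 4.38% of HLA-G, 2.54% of HLA-B and 1.70% of HLA-F. They made up 0% of B2M and NLRC5. The read length is not given in the sources used here, and the alleles of the line can be further from or closer to each other than the reference, so the values of single heavy chains are uncertain to that extent.

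Together the 5 heavy chains were at 1653, 1691, 1649 and 1747 CPM. Their sum did not pass the test by number, with a log2 fold change of 0.058, an interval of -0.052 to 0.17 and an adjusted p of 0.346, nor by vector, with a log2 fold change of 0.022, an interval of -0.27 to 0.32 and an adjusted p of 1.00. For every 100 counts of B2M there were 123.5, 89.3, 123 and 90.4 counts of the 5 heavy chains, so the counts of these 5 outnumbered those of the light chain in the libraries numbered 1 and not in those numbered 2, and other heavy chain genes were not analysed here. These are counts of reads and not of molecules, since the transcripts differ in length.

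The genes that cut, carry and load peptides for the class I molecule showed 0 calls of 14 by vector, with log2 fold changes from -0.050 for PSMB9, an immunoproteasome subunit, to 0.082 for ERAP2, a trimming peptidase. By number 2 of the 14 were called, both higher, where 10.9% of all genes were called higher, and 0 were called lower, where 17% were. PSMB8, another immunoproteasome subunit, was at 204 and 205 CPM in the libraries numbered 2 against 95.3 and 90.3 CPM, with a log2 fold change of 1.14, a standard error of 0.042 and an adjusted p of 1.10e-07. TAPBPL, a peptide editor related to tapasin, was at 22.5 and 23.9 CPM against 10.97 and 9.90 CPM, with a log2 fold change of 1.15 and an adjusted p of 5.74e-06. The lowest was CANX, a chaperone of newly made heavy chains, at -0.21. The median of the list was 0.19 by number.

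Among 15 regulators of class I transcription 0 were called by vector, where NFYB was highest at 0.11 and CIITA lowest at -0.086. By number 2 were called higher, where 10.9% of all genes were, and 1 lower, where 17% were. CIITA, the activator of class II genes that is related to NLRC5, was at 96.0 and 90.9 CPM in the libraries numbered 2 against 48.7 and 45.4 CPM, a log2 fold change of 0.99 (adjusted p = 1.04e-06). JAK2, a kinase of the IFN-γ receptor, was at 125 and 127 CPM in the libraries numbered 2 against 79.9 and 83.3 CPM, a log2 fold change of 0.63 (adjusted p = 4.40e-06).

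NFYB, a subunit of the NF-Y factor that binds CCAAT, was at 20.0 and 21.3 CPM in the libraries numbered 2 against 29.5 and 32.2 CPM, a log2 fold change of -0.58 (adjusted p = 1.54e-04). IRF1 was at 813, 1044, 832 and 1078 CPM, higher in the libraries numbered 2 by a log2 fold change of 0.37 (adjusted p = 2.15e-04), and was not called for want of size. By vector the log2 fold change of IRF1 was 0.040, with a 95% interval of -0.57 to 0.66. NLRC5, at 0.12, moved less by number than CIITA, JAK2 and IRF1, and the differences between these genes were not tested. The median of the 15 regulators was 0.15 by number.

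**Figure D4:**
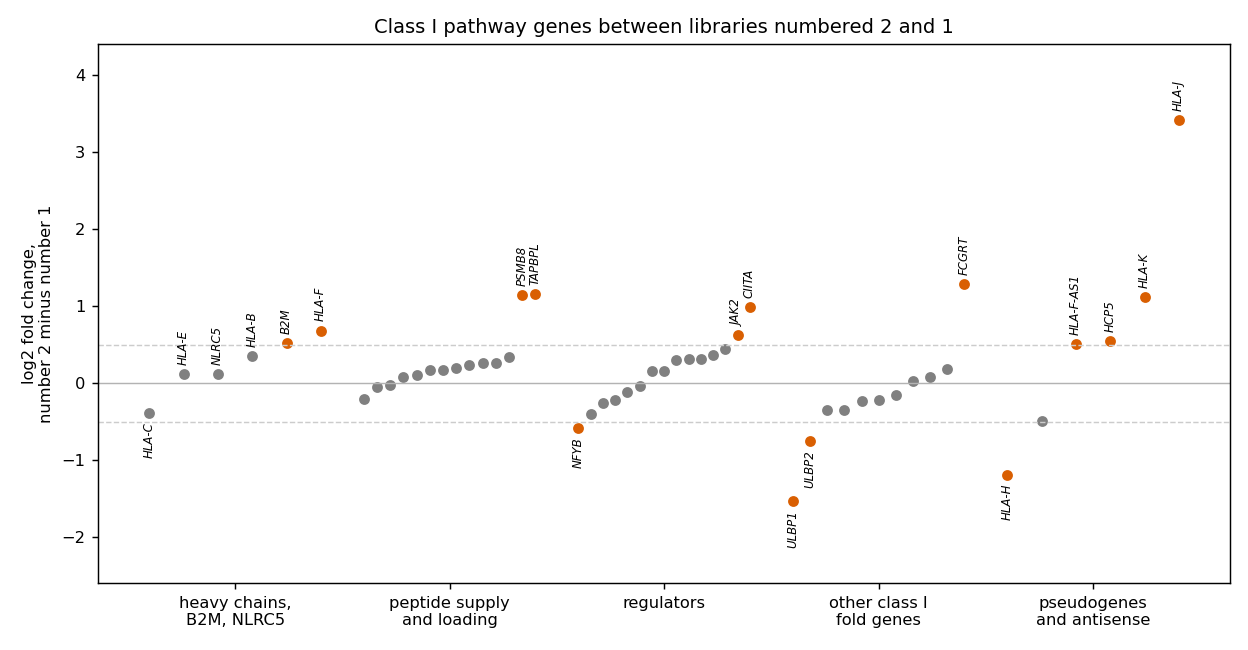
Log2 fold change of the libraries numbered 2 over those numbered 1 for the class I genes and 4 lists of related genes, 1 point per tested gene, with called genes in orange and dashed lines at 0.5 and -0.5. Among the class I genes only B2M and HLA-F pass the upper line, while PSMB8, TAPBPL and CIITA lie near 1; RAET1E, at 0 counts in the libraries numbered 2, is off the scale and left out.

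Of 14 other genes with the class I fold 12 were tested, and 0 were called by vector. RAET1G, a ligand of the natural killer receptor NKG2D, had the highest log2 fold change, 1.08, on 14 and 24 counts in control and 46 and 37 counts in YTHDF1, with an unadjusted p of 0.109. With the replicate number as a block it met the unadjusted rule, at 1.10 with an unadjusted p of 0.0393 and an adjusted p of 0.999 in edgeR. ULBP1, another ligand of NKG2D, was the lowest at -0.15. By number 1 gene was called higher, where 10.9% of all genes were, and 3 lower, where 17% were. FCGRT, the heavy chain of the neonatal Fc receptor, which also pairs with B2M, was at 16.6 and 15.3 CPM in the libraries numbered 2 against 6.88 and 6.25 CPM, a log2 fold change of 1.28 (adjusted p = 9.00e-06).

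The 3 genes called lower by number were ligands of NKG2D, which do not bind B2M. ULBP1 had a log2 fold change of -1.54 (adjusted p = 5.09e-05) and ULBP2 one of -0.75 (adjusted p = 0.0174). RAET1E had 211 and 256 counts in the libraries numbered 1 and 0 in those numbered 2. The median of the 12 genes was -0.22 by number.

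Of 8 class I pseudogenes and antisense genes 6 were tested, and 0 were called by vector, with HLA-H highest at 0.098 and HLA-J lowest at -0.31. By number 4 were called higher at unadjusted p, where 10.9% of all genes were, and 1 lower, where 17% were. HLA-H, a pseudogene, was at 10.3 and 11.5 CPM in the libraries numbered 2 against 24.3 and 25.6 CPM, a log2 fold change of -1.19 (adjusted p = 4.20e-06). HLA-K, another pseudogene, had a log2 fold change of 1.11 (adjusted p = 2.93e-04), and HCP5, a non-coding gene, one of 0.54 (adjusted p = 0.00286). HLA-J had 3 counts in the libraries numbered 1 and 34 in those numbered 2, a ratio of 11.5 with a counting interval of 3.602 to 58.3. HLA-F-AS1, which overlaps HLA-F on the other strand, was at 2.49, 4.02, 2.39 and 2.92 CPM, a log2 fold change of 0.50 (unadjusted p = 0.0308, adjusted p = 0.0571). The kit marks strand but the strand setting of the counting is not given in the sources used here, so reads of HLA-F and of its antisense gene may not have been told apart. Pseudogenes resemble the heavy chains and can take or lend reads, so their values are uncertain too.

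The genes whose pattern over the 4 libraries was most like that of B2M were GLRX3, SSH2 and PRKAR1B, with root mean square distances of 0.0038, 0.0062 and 0.0075 on the centred log2 CPM scale, among 9991 genes at a mean of at least 10 CPM. Those most like NLRC5 were TOB2, SF3B3 and AP1G1, at distances of 0.0025, 0.0026 and 0.0036. None of the 6 is a class I gene or in the lists above, and with 4 libraries that differ mainly by number such likeness is a description only.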

How the data were processed

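The authors deposited counts, whole numbers of reads per gene and library without normalization, for 4 libraries of poly(A) RNA made with a stranded kit. The submitters' processing notes name Trimmomatic, HISAT2 and GRCh38. The counting tool, strand setting, annotation and read length are not given in the sources used here. Genes were kept by filterByExpr (17781 of 46427), scaled by TMM and tested by quasi-likelihood in edgeR 4.0.16 (R 4.3.3), with p adjusted after Benjamini and Hochberg, for YTHDF1 against control and for replicate number 2 against 1, without further terms. A call needed 0.5 or more in size on the log2 scale and p under 0.05, unadjusted and adjusted, since the study does not say which. Alternatives used limma 3.58.1, DESeq2 1.42.0, other filters and scalings, and each library left out. CPM are scaled to the TMM library sizes, and differences within a number or a vector are of log2 CPM with a prior count of 0.5. Poisson intervals and floors of 3 counts cover counting error only, as PCR copies were not marked. The labels call the replicates biological but do not say that they came from separate cultures, so p-values measure the spread between these libraries. Each of the 7 genes was described in every library, and of the 4 related lists every called gene and otherwise the highest and lowest log2 fold change were named. From the list of regulators 1 gene is not reported here. IRF1, EPCAM, CLDN4 and the keratins were named after their values were seen. The members and lists were chosen with earlier results of these data known. Promoters and gene names came from RefSeq (GRCh38.p14), and overlap of transcripts was counted on reference transcripts. Scripts were checked on simulated data. Python 3.11.15 and matplotlib 3.10.9 drew the figures.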

Additional observations from a re-analysis of the deposited data

How the results depend on the processing

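Between the vectors, the count of genes called with adjusted p was 0 by edgeR's quasi-likelihood test, 3 by DESeq2's Wald test, 4 by edgeR's likelihood ratio test and 8 with the replicate number as a block, and with unadjusted p it was 18, against 82 with no filter on low counts (26355 genes), 192 with the block and 47 to 60 with 1 library left out. None of the 6 class I genes was called in any of these settings. The titles pair the libraries only by number and do not say what is shared. In the values, same-numbered libraries did go together: their deviations from the group means correlated at 0.942 across 17781 genes, with 2 pairs. Under the block the 6 genes had an adjusted p of 0.999, and RAET1G became a call at unadjusted p (1.10, p 0.0393). Between the numbers HLA-E passed by adjusted p with the vector as a term (0.0360), DESeq2's Wald test (0.0040), limma-voom (0.0126), YTHDF1 left out of the table (0.0196) and without control replicate 1 (0.0488) or YTHDF1 replicate 1 (0.0279).

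With no fold change asked for (chosen after seeing the data), the genes called by number went from 2 to 6 of the 6 at unadjusted p and to 5 at adjusted p, and over all genes from 4955 to 10298 and from 4659 to 9358. As 1 sum of heavy chains (also chosen after seeing the data), the log2 fold change by number was 0.058, against the fall of HLA-C and the call of HLA-F, and by vector 0.022, against the sign of HLA-F. By vector HLA-J turned to 1.17 with limma-voom and to 0.0047 with the block.

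Leaving out 1 library leaves the numbers unbalanced, with the lone library of a group assumed to vary like the others, and the sign by vector then turned with the library left out: -0.28 to 0.29 for B2M, -0.19 to 0.18 for HLA-B, -0.17 to 0.25 for HLA-C, -0.054 to 0.096 for HLA-E, -0.44 to 0.33 for HLA-F, -0.043 to 0.085 for NLRC5, -0.68 to 0.48 for CIITA, -0.59 to 0.84 for HLA-H, -1.75 to 6.10 for HLA-J, -0.22 to 0.42 for NFYB, -0.20 to 0.078 for PSMB9 and -1.20 to 0.74 for ULBP1. By number B2M stayed at 0.50 to 0.54, HLA-F at 0.64 to 0.72 and HLA-C at -0.41 to -0.35. Among the calls by number at unadjusted p, those lost were HLA-F-AS1 (0.48 to 0.50 with DESeq2 size factors, DESeq2's Wald test, limma-voom, at least 10 counts in every library and the vector as a term, and 0.53, 0.26 and 0.48 without control replicate 1, control replicate 2 and YTHDF1 replicate 1), ULBP2 (-0.52 without control replicate 2 or YTHDF1 replicate 1), HCP5 (0.46 and 0.48 without YTHDF1 replicate 1 or 2) and HLA-J (3.10 without control replicate 2). By adjusted p HLA-J also missed without control replicate 1 (0.0737) or YTHDF1 replicate 2 (0.0519) and ULBP2 and HLA-J with no filter (0.0705 and 0.0582). The cause was not tested. Depth limits HLA-G, RAET1G and HLA-J, and not B2M or HLA-E.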
